A study of Mus musculus and Rattus norvegicus with 36 samples.

Results

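Transcripts of 42 genes of the extracellular matrix other than collagens were followed across graded dietary selenium (Se) in rat liver, mouse liver and mouse kidney. The genes were chosen as a class, with earlier results of these data known and with genes among them that the study itself had named from these animals, and each was read from 1 Affymetrix probe set, its brightest on average in that tissue among those that carry a single gene symbol. All 42 were measured in the rat, out of 14217 genes with such a probe set, and 38 of the 42 were measured in the mouse, out of 18193 genes. Loxl2 was present on the mouse array only in probe sets that carry several symbols, and Fbn1, Efemp2 and Tsku were not analysed here in the mouse.

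The study asked how Se status, from deficiency to toxicity, alters the transcriptome of rodents. Male weanling mice of a wild-type colony, mostly of a C57 black background, ate a torula yeast basal diet low in Se for 35 days, either as it was (Se-deficient) or with 0.05 (Se-marginal) or 0.2 (Se-adequate) μg Se/g diet. Male weanling Holtzman rats ate the same basal diet for 28 days, Se-deficient, or with Se added at 0.08, 0.24 or 0.8 μg/g or at the high intakes of 2 and 5 μg/g, and all Se was added as sodium selenite. The basal diet, and so every group, carried added vitamin E and methionine, livers were perfused in place with potassium chloride before they were frozen, and each group held 3 arrays, each of a different animal within a tissue. The rat diets come from 2 studies: Se-deficient, 0.24, 2 and 5 μg Se/g were fitted together, and 0.8 and 0.08 μg Se/g were fitted apart from them. The comparisons of 5, of 2 and of no added Se with 0.24 μg Se/g share the same 3 Se-adequate arrays, and the comparison of 5 with 2 shares arrays with both.

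The matrix is a mesh of secreted proteins. Fibrillar collagens are hydroxylated and folded inside the cell, and lysyl oxidases cross-link them and elastin outside it. Laminins, nidogens and the heparan sulfate proteoglycan perlecan form basement membranes with type IV collagen, and fibrillins and fibulins carry elastin. In healthy liver the sinusoids lack a continuous basement membrane, and stellate cells and portal fibroblasts deposit much of the matrix.

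Values are log2 levels, so a difference of 1 is a 2-fold change, and a gene is said to have risen, fallen or been called only where limma's Benjamini-Hochberg adjusted p over all probe sets was below 0.05. Labelled tissues carried their defining transcripts: Alb was at a mean of 14.95 in Se-adequate rat liver and 14.85 in Se-adequate mouse liver against 9.19 in mouse kidney, where Umod, a protein of the thick ascending limb, was at 13.66. By its count of probe sets more than 2-fold from the Se-adequate mean, replicate 1 at 2 μg Se/g stood apart. It had 1964, against 136 and 147 for replicates 2 and 3 of that diet. By correlation with its own group, replicate 3 of that diet was the lowest rat array (r = 0.983). Replicate 1 was close to it (r = 0.984), and replicate 2 was at 0.996. Spike-in controls (Lys and Phe) were at 9.22 to 9.67 in the rat arrays of 0.8 and 0.08 μg Se/g. In the other rat arrays they were at 5.14 to 6.16, so levels are not tested between these sets.

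At 5 μg Se/g diet, the intake the study describes as toxic, 12 of the 42 matrix transcripts rose against 0.24 μg Se/g and 0 fell. They were Lox, Loxl1, Plod2, Serpinh1, Lama4, Lama5, Lamc1, Nid2, Hspg2, Fbn1, Tnc and Chsy1. Over all genes measured, 3.26% were called higher and 0.809% lower in the same comparison (463 and 115 of 14217). The median log2 change was 0.55 over the 42 transcripts and -0.005 over all genes, and 35 of the 42 had a positive change, as did 49.0% of all genes. All 3 arrays at 5 μg Se/g lay above all 3 at 0.24 μg Se/g for 22 of the 42, where this was so for 15.1% of all genes, and the reverse was seen for 0 of the 42, against 11.7% of all genes. Of the 12 transcripts that rose, 8 were at least 2-fold higher. For 13 of the 42 every array at 5 μg Se/g lay above each of the 9 other arrays fitted with it, where this was so for 5.94% of all genes. These are whole livers, so more cells of a type and more RNA per cell cannot be told apart. The study also reports slower growth and raised plasma markers of liver damage in rats on the toxic diet. It therefore removed transcripts shared with caloric restriction or general toxicity. Lama4, Chsy1 and Serpinh1 stayed in its narrowed list, and Tnc and Lamc1 did not. No such filter was applied here, and the part of growth or liver damage in these rises was not tested. Plasma aspartate aminotransferase, a marker of this kind, was also reported as higher at 2 μg Se/g and on the Se-deficient diet.

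**Figure D1:**
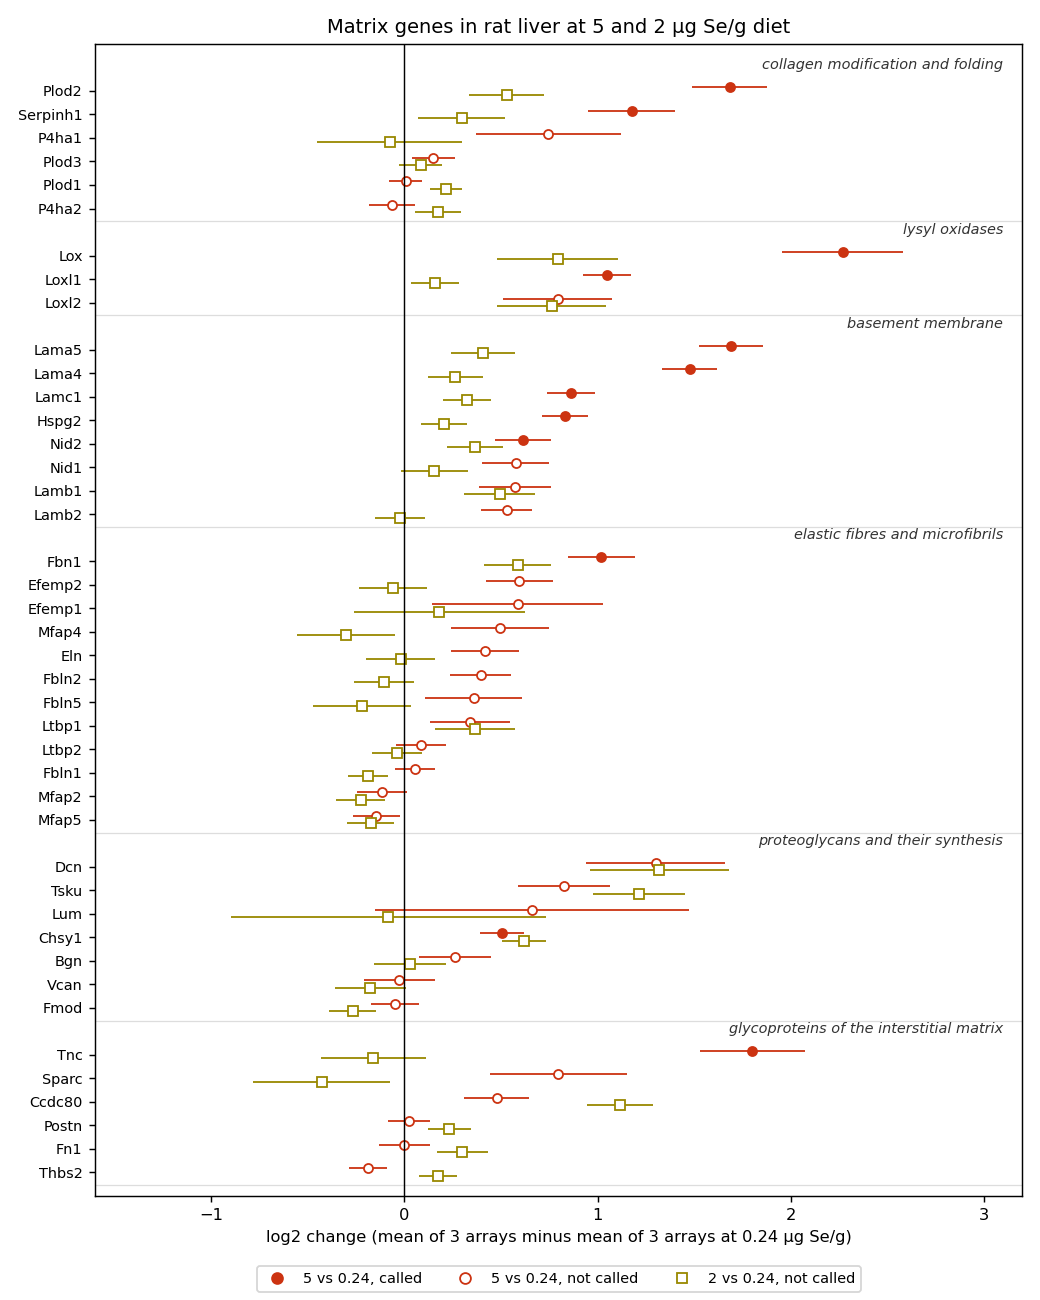
Log2 change of each of the 42 matrix transcripts in rat liver at 5 μg Se/g (red circles) and at 2 μg Se/g (yellow squares) against the same 3 arrays at 0.24 μg Se/g, with 1 SE from limma (n = 3 per diet) and the genes grouped by role. Filled symbols are called at an adjusted p below 0.05. All 12 filled symbols are circles right of 0, and 5 of them are in the basement membrane group.

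The lysyl oxidases make the aldehydes that cross-link collagen and elastin, and 2 of the 3 measured rose. Lox, the founding member of the family, was at 6.77, 7.87 and 6.31 at 0.24 μg Se/g and at 9.49, 9.08 and 9.20 at 5 μg Se/g. The Se-adequate arrays were spread over more than 1 log2 unit, yet the highest of them was still more than 1 unit below the lowest array at 5 μg Se/g. Lox had the largest change of the 42, 2.27 ± 0.31 (SE), or 4.82-fold, with an adjusted p of 0.00338, and its second probe set gave 2.37. Loxl1, which acts on elastin, was at 7.03, 7.23 and 7.04 at 0.24 μg Se/g and at 8.13, 8.14 and 8.19 at 5 μg Se/g. Its arrays were tight on both diets, and it rose by 1.05 ± 0.12, or 2.07-fold (adjusted p = 0.00164). Loxl2, which cross-links type IV collagen, was at 6.24, 6.54 and 5.47 and then at 6.80, 6.95 and 6.89. These groups did not overlap, but the change of 0.79 ± 0.28 was not called (adjusted p = 0.201), while a second and dimmer Loxl2 probe set was called, at 0.74 ± 0.15 (adjusted p = 0.0258). The call on Loxl2 thus depends on the probe set.

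Among the 6 genes that modify and fold collagen, Plod2 and Serpinh1 rose and the other 4 were not called. Plod2, the lysyl hydroxylase of the collagen telopeptides, was at 6.82, 7.47 and 7.16 at 0.24 μg Se/g and at 8.41, 9.17 and 8.92 at 5 μg Se/g. All arrays at 5 μg Se/g lay above all others, and the change was 1.68 ± 0.19, or 3.21-fold (adjusted p = 0.00146). Serpinh1 encodes the collagen chaperone Hsp47. It was at 9.48, 9.49 and 9.13 and then at 10.54, 10.70 and 10.38, a change of 1.18 ± 0.23 (adjusted p = 0.0172). The Serpinh1 call was lost when Se-adequate replicate 1 or 3 (adjusted p = 0.0509 and 0.0765) or replicate 1 or 2 at 5 μg Se/g (0.0692 and 0.0790) was left out, with changes of 1.06 to 1.24. A second and dim Serpinh1 probe set, at a mean level of 3.94, changed by 0.27 and was not called. Plod1 and Plod3, the other lysyl hydroxylases, changed by 0.01 and 0.15. The prolyl hydroxylase subunits P4ha1 and P4ha2 changed by 0.75 ± 0.38 and -0.06 ± 0.12, so Plod2 was the only hydroxylase subunit of the 5 to be called.

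The basement membrane group held 5 of the 12 calls among its 8 genes, and the other 3 also had positive changes. Lama4, the laminin alpha chain of vessel walls, was at 7.10, 6.87 and 6.89 at 0.24 μg Se/g and at 8.43, 8.76 and 8.10 at 5 μg Se/g. Lama5, the other alpha chain measured, was at 5.89, 5.61 and 5.92 and then at 7.39, 7.91 and 7.18. For both chains replicate 2 was the highest and replicate 3 the lowest of the arrays at 5 μg Se/g, and no rat array of another diet reached the lowest of them. The changes were 1.48 ± 0.14 and 1.69 ± 0.16, both with an adjusted p of 0.000462. Other Lama4 and Lama5 probe sets, at mean levels of 4.04 to 4.57, changed by -0.17 to 0.02 and were not called. On the Se-adequate diet Lama5 lay below the medians of its arrays, so the size of its rise is uncertain. In the alternatives the change of Lama5 was as low as 0.51, and that of Lama4 as low as 0.75.

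The shared gamma chain of most laminins, Lamc1, was at 8.50, 8.69 and 8.43 and then at 9.43, 9.59 and 9.20, a rise of 0.86 ± 0.13 that its second probe set matched at 0.85. Hspg2, which encodes perlecan, was at 5.96, 6.27 and 6.31 and then at 7.03, 7.08 and 6.91, a rise of 0.83 ± 0.12. Neither gene overlapped between the diets, and their adjusted p-values were 0.00405 and 0.00390. Nid2, one of the nidogens that tie laminin to type IV collagen, was at 7.22, 7.59 and 6.97 and then at 7.67, 7.91 and 8.04. Its rise of 0.61 ± 0.15 only just passed (adjusted p = 0.0484). The Nid2 call was lost in 9 of 16 alternatives, among them those without replicate 1 or 3 at 0.24 μg Se/g or any 1 array at 5 μg Se/g, with adjusted p up to 0.161 and changes of 0.47 to 0.78 with an array left out. The beta chains Lamb1 and Lamb2 and the nidogen Nid1 changed by 0.57 ± 0.19, 0.53 ± 0.13 and 0.58 ± 0.17, with adjusted p-values of 0.153, 0.0572 and 0.119. Lamb2 and Nid1 did not overlap between the diets, whereas the highest Se-adequate array of Lamb1, at 7.61, lay above the lowest array at 5 μg Se/g, at 7.49. A second Nid1 probe set changed by 0.04.

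**Figure D2:**
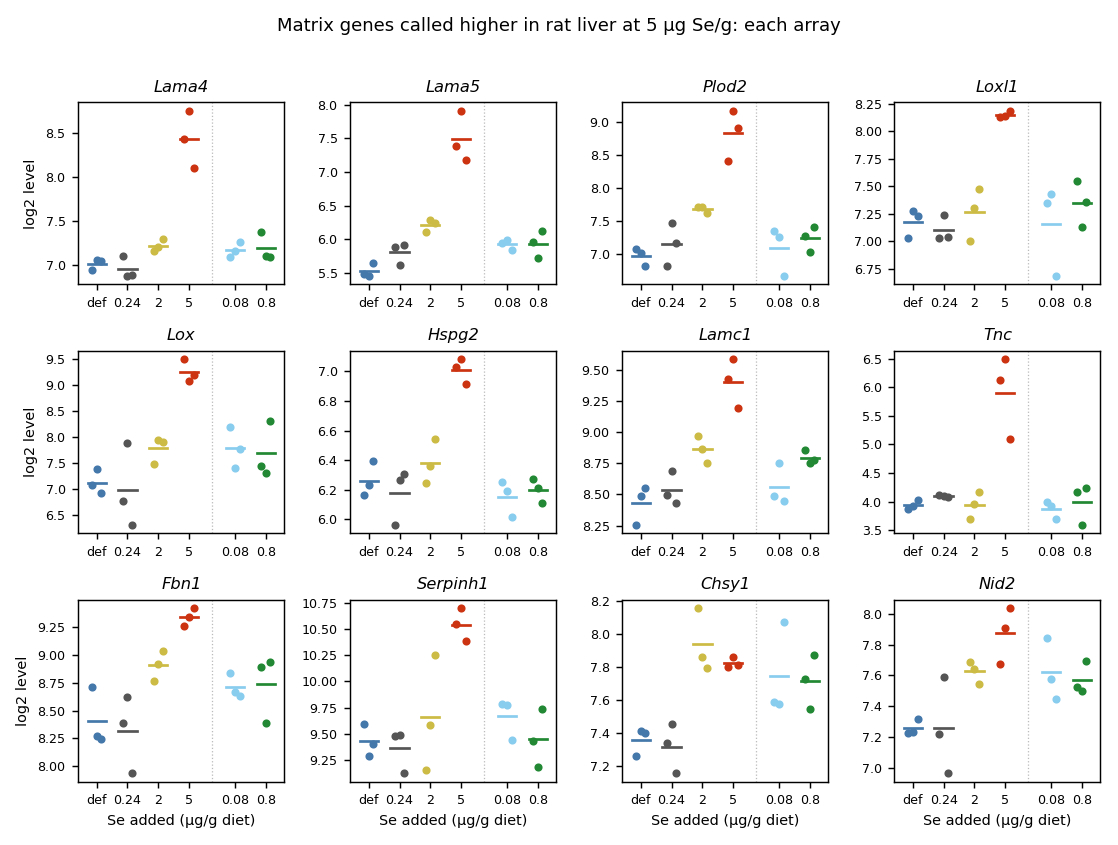
Log2 level on each array (points) and the mean of 3 arrays (bars) for the 12 matrix transcripts called higher in rat liver at 5 μg Se/g, by Se added to the diet; def is the Se-deficient diet and the dotted line parts the 2 rat studies. In 10 panels every red point lies above all points of the Se-deficient, 0.24 and 2 μg Se/g diets, and in the panels of Chsy1 and Nid2 the points at 2 and 5 μg Se/g overlap.

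Of the 12 genes of elastic fibres and microfibrils, 1 was called. Fbn1, the main fibrillin, was at 8.39, 8.63 and 7.94 at 0.24 μg Se/g and at 9.26, 9.34 and 9.42 at 5 μg Se/g. It rose by 1.02 ± 0.17, or 2.03-fold (adjusted p = 0.00913), and a second probe set rose by 1.15 ± 0.25. Elastin itself, Eln, changed by 0.42 ± 0.18, and the fibulins Efemp2 and Fbln2 changed by 0.60 ± 0.17 and 0.39 ± 0.16. Efemp2, which brings lysyl oxidase to elastin, was at 6.53, 6.54 and 6.67 and then at 6.99, 7.22 and 7.31, without overlap, but its adjusted p was 0.110. Changes of the other 8 lay between -0.15 and 0.59.

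Chsy1, a chondroitin synthase, was the one called among 7 proteoglycan genes. Its levels were 7.34, 7.45 and 7.16 at 0.24 μg Se/g and 7.80, 7.86 and 7.81 at 5 μg Se/g, a rise of 0.51 ± 0.11 (adjusted p = 0.0365). That call was lost in 8 of 16 alternatives, among them each one without any 1 of these 6 arrays, with adjusted p up to 0.136 and changes of 0.43 to 0.58. The study itself named Chsy1, Lama4, Lamc1, Tnc and Serpinh1 for the toxic diet, and Tsku and Ccdc80 for the lower of the high intakes. It also placed Chsy1 in gene clusters raised to some extent on both of these diets. Further matrix genes were referred to without being named. All of this came from these same animals, so the values given here are not independent evidence. Dcn, the small leucine-rich proteoglycan that binds collagen fibrils, was at 7.28, 7.54 and 6.91 and then at 8.62, 8.55 and 8.47. That is a change of 1.30 ± 0.36, or 2.47-fold, larger than that of Chsy1 but not called (adjusted p = 0.0905). Dcn varied more in the arrays fitted with it, from 6.25 to 8.10 on the Se-deficient diet. Tsku, a small leucine-rich protein of liver, changed by 0.82 ± 0.24 (adjusted p = 0.104). Lum, a relative of Dcn, changed by 0.66 ± 0.81 and was too variable to place, and Bgn, Fmod and Vcan changed by 0.26, -0.05 and -0.03.

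Tnc was the only one of the 6 interstitial glycoproteins to be called. It encodes tenascin-C, a matrix protein of development and repair, and it lay between 3.60 and 4.23 in all rat arrays of the other diets, with levels of 4.11, 4.11 and 4.08 on the Se-adequate diet. At 5 μg Se/g it was at 6.13, 6.48 and 5.09, a rise of 1.80 ± 0.27 (adjusted p = 0.00488). The medians of the rat arrays were 6.24 to 6.29, so Tnc was dim on every other diet and the size of its rise is uncertain. Replicate 3 was more than 1 log2 unit below the other arrays of its diet but still above every array of the other diets. Fn1, which encodes fibronectin and is made in large amounts by hepatocytes, was at 13.30, 13.51 and 13.43 and then at 13.35, 13.48 and 13.40, a change of 0.00 ± 0.13. Sparc, a collagen-binding protein, was at 10.78, 10.76 and 10.04 and then at 11.32, 11.86 and 10.79, and its change of 0.80 ± 0.35 was not called (adjusted p = 0.321). Ccdc80, Postn and Thbs2 changed by 0.48 ± 0.17, 0.02 ± 0.11 and -0.19 ± 0.10. Thbs2, an inhibitor of angiogenesis, thus had the lowest change of the 42, and it was not called either.

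At 2 μg Se/g, an intake above the requirement, 0 of the 42 transcripts were called against 0.24 μg Se/g by limma, as 1 of 14217 genes (0.00703%) was called higher and 0 lower. At an unadjusted p below 0.05 there were 15 of the 42, 14 of them with a positive change, where 9.47% of all genes had such a p with a positive change and 9.19% with a negative one. The median log2 change was 0.17, against -0.04 over all genes. For 12 transcripts all arrays at 2 μg Se/g lay above all arrays at 0.24 μg Se/g, against 6.39% of all genes, and for 1, Fmod, they lay below, against 6.98%. Replicate 1 at 2 μg Se/g stood apart by its count of probe sets, and its part in these p-values and overlaps was not tested. The medians of the members' deviations from the Se-adequate means were 0.17, 0.17 and 0.23 in the 3 arrays at 2 μg Se/g. In those at 5 μg Se/g they were 0.50, 0.56 and 0.61.

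The transcripts with the smallest p at 2 μg Se/g were Ccdc80, Chsy1 and Tsku. Ccdc80, a secreted protein that binds matrix, was at 10.16, 10.21 and 10.01 at 0.24 μg Se/g, at 11.40, 11.20 and 11.11 at 2 μg Se/g and at 10.22, 10.56 and 11.02 at 5 μg Se/g. Its level at 2 μg Se/g was thus above that of both other diets. The change against 0.24 μg Se/g was 1.11 ± 0.17 and was not called here (adjusted p = 0.155). The study did call Ccdc80 higher in this comparison. It reported the rise by qRT-PCR too, and a lesser one on the toxic diet. Why the calls differ was not tested. Tsku was at 9.61, 9.81 and 10.41, at 11.20, 11.14 and 11.14 and at 10.46, 11.34 and 10.50 on the same 3 diets, with a change of 1.21 ± 0.24 at 2 μg Se/g (adjusted p = 0.321). Chsy1 was at 8.16, 7.86 and 7.80 at 2 μg Se/g, a change of 0.62 ± 0.11 (adjusted p = 0.282). The study had already placed Chsy1 in clusters raised to some extent at this intake. Dcn was as high at 2 as at 5 μg Se/g, at 8.27, 8.49 and 8.92, and changed by 1.32 ± 0.36. Loxl2 was at 6.91, 6.88 and 6.75, a change of 0.76 ± 0.28. In the other role groups the smallest p belonged to Plod2 (0.53 ± 0.19) and Plod1 (0.22 ± 0.08), Lamb1 (0.49 ± 0.19) and Lamc1 (0.33 ± 0.13), Fbn1 (0.59 ± 0.17) and Fbln1 (-0.19 ± 0.10), and Lox and Fn1 changed by 0.79 ± 0.31 and 0.30 ± 0.13. The count of 0 called became 4 (Ccdc80, Chsy1, Tsku and Fn1) without replicate 3 at 2 μg Se/g.

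**Figure D3:**
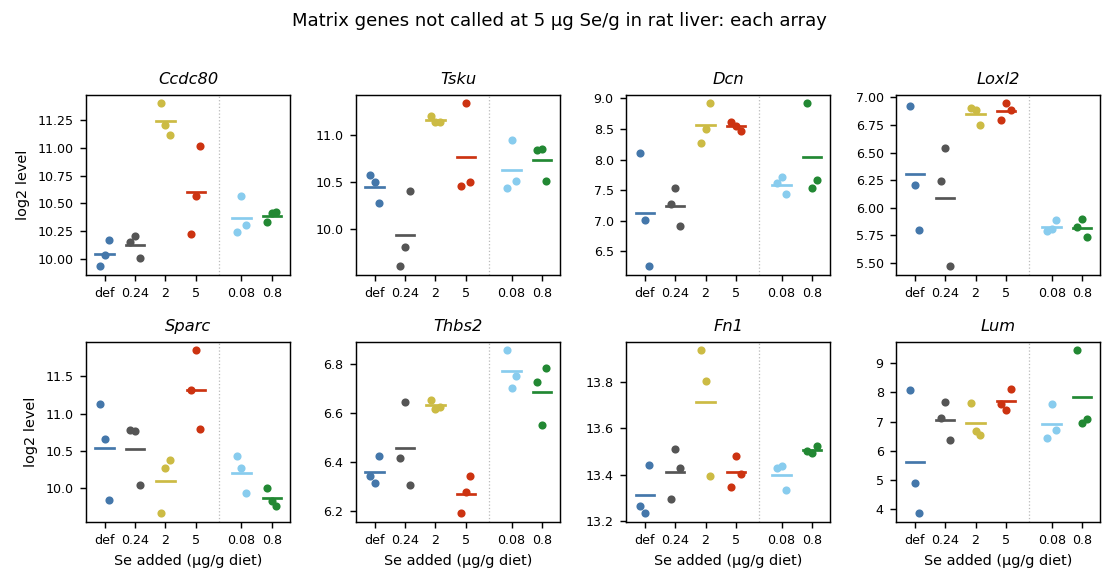
Log2 level on each array (points) and the mean of 3 arrays (bars) for 8 matrix transcripts that were not called at 5 μg Se/g in rat liver, by Se added to the diet; def is the Se-deficient diet and the dotted line parts the 2 rat studies. Ccdc80 has its highest mean at 2 μg Se/g, Dcn and Loxl2 are alike at 2 and 5 μg Se/g, and Thbs2 has its lowest mean at 5 μg Se/g.

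Between the high intakes, 5 against 2 μg Se/g, 9 of the 42 transcripts rose and 0 fell, where 3.21% of all genes were called higher and 1.29% lower. For 19 of the 42 all arrays at 5 μg Se/g lay above all at 2 μg Se/g, against 14.2% of all genes. Lama4, Lama5, Tnc, Loxl1, Plod2, Hspg2, Lox and Lamc1 rose, as they had against 0.24 μg Se/g, and the ninth was Lamb2. Tnc had the largest change, 1.96 ± 0.27 (adjusted p = 0.00633), followed by Lox at 1.48 ± 0.31 (adjusted p = 0.0319), Lama5 at 1.28 ± 0.16 (0.00458) and Lama4 at 1.21 ± 0.14 (0.00303). Lamb2, the laminin chain of vessel and kidney basement membranes, was at 6.86, 6.66 and 6.53 at 2 μg Se/g and at 7.34, 7.33 and 7.03 at 5 μg Se/g, a rise of 0.55 ± 0.13 (adjusted p = 0.0457). This count rests on the arrays: it was 5 without replicate 1 at 2 μg Se/g, 4 without replicate 2 and 19 (16 higher and 3 lower) without replicate 3 at 2 μg Se/g, and 5 and 4 without replicates 1 and 2 at 5 μg Se/g. With only the 6 arrays of both diets in the fit it was 0.

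Fbn1 and Serpinh1, called against 0.24 μg Se/g, changed by 0.43 ± 0.17 and 0.88 ± 0.23 against 2 μg Se/g (adjusted p = 0.157 and 0.0574). At 2 μg Se/g Serpinh1 was at 9.15, 9.58 and 10.25, and replicate 1, which stood apart by its count, held the lowest of these. The mean of Tnc was 3.94 at 2 μg Se/g, against 4.10 at 0.24 μg Se/g, and that of Chsy1 was 7.94, against 7.83 at 5 μg Se/g. A lower mean at 5 than at 2 μg Se/g was seen for 10 members. The change was positive for 32 of the 42, against 7640 of 14217 genes. For 5 of the 10 (Plod1, P4ha2, Postn, Thbs2 and Ccdc80) the arrays did not overlap, where this was so for 9.36% of all genes. Ccdc80 and Thbs2 had the smallest p of these, with changes of -0.64 ± 0.17 and -0.36 ± 0.10 (adjusted p = 0.0647 and 0.0691). The others with the smallest p in their role groups were Plod1 (-0.21 ± 0.08), Nid1 (0.42 ± 0.17) and Nid2 (0.25 ± 0.15), Efemp2 (0.65 ± 0.17) and Fbln2 (0.50 ± 0.16), Fmod (0.22 ± 0.12) and Tsku (-0.39 ± 0.24), and Loxl2 at 0.03 ± 0.28.

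Other genes of matrix biology were read from lists in the comparison of 5 with 0.24 μg Se/g, and the study had named some of them too, collagens among them. Among 17 collagens 7 rose and 0 fell: Col4a1 and Col4a2 of basement membranes by 2.04 and 1.65, Col1a1 and Col1a2 of fibrils by 1.62 and 1.20, and Col5a2, Col6a3 and Col12a1 by 1.03, 1.36 and 1.30. The median log2 change over the 17 was 0.54, close to the 0.55 of the 42 other matrix transcripts, and the lowest was -0.79. The study called Col14a1, a collagen of this list, lower at this intake, whereas it was not called here. Why these calls differ was not tested. Of 22 matrix proteases and inhibitors 3 rose and 0 fell, namely Timp3, a protease inhibitor bound to matrix, by 1.84 ± 0.21, Adamts5, an aggrecan-cutting protease, by 0.63 ± 0.12, and Mmp15, a membrane-bound protease, by 0.59 ± 0.13. Of 19 receptors for matrix 2 rose and 0 fell, the collagen receptor Ddr2 by 2.00 ± 0.22 and the integrin chain Itga8 by 0.61 ± 0.14. Of 11 genes of Tgf-beta signalling and response 3 rose and 0 fell, and Ccn2, connective tissue growth factor, moved from a mean of 7.49 to 10.73, a change of 3.24 ± 0.45, followed by Pmepa1 at 0.93 and Tgfb3 at 0.85.

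Markers of cell types also moved between these diets. Of 8 genes of myofibroblasts and smooth muscle 4 rose (Tagln by 2.68, Actg2 by 2.31, Myh11 by 1.29 and Acta2 by 0.90), and their mean level per array was 6.31 to 6.44 at 0.24 μg Se/g, 6.12 to 6.65 at 2 μg Se/g and 6.98 to 7.48 at 5 μg Se/g. Of 9 endothelial genes 5 rose, Emcn by 1.76, Tie1 by 1.25, Vwf by 1.11, Pecam1 by 0.92 and Tek by 0.62, and the mean level of the 9 was 8.74 to 8.99 and then 9.27 to 9.44 at 5 μg Se/g. The other 4 endothelial genes had negative changes that were not called, Stab2 at -0.35, Kdr at -0.30, Lyve1 at -0.14 and Eng at -0.07, of which Stab2 and Lyve1 are markers of the sinusoids. Of 8 genes of quiescent stellate cells Lrat and Reln fell by 2.11 and 1.95 on the log2 scale and Des rose by 0.93. The mean level of the 8 per array was 6.96 to 7.14 and then 6.36 to 7.02. Krt19, 1 of 6 bile duct genes, rose by 2.63, and Clec4f, 1 of 6 macrophage genes and a marker of Kupffer cells, fell by 1.78. The mean level per array over the whole bile duct list was 5.73 to 6.42 and then 6.23 to 7.08. Over the whole macrophage list it was 9.24 to 9.52 and then 8.89 to 9.05. Podxl, listed for podocytes but also made by endothelium, rose by 1.65 as 1 of 4 such genes. In the lists of hepatocytes (8 genes, 13.96 to 14.06, then 13.94 to 14.03), portal fibroblasts (5 genes, 6.90 to 7.08, then 6.999 to 7.12), mesothelium (5 genes, 6.44 to 6.75, then 6.54 to 6.57), red blood cells (4 genes, 7.12 to 7.74, then 7.86 to 8.39) and kidney tubules (8 genes, 5.27 to 5.37, then 5.13 to 5.19) 0 genes were called. The part of these cell types in the rise of the matrix transcripts was not tested.

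**Figure D4:**
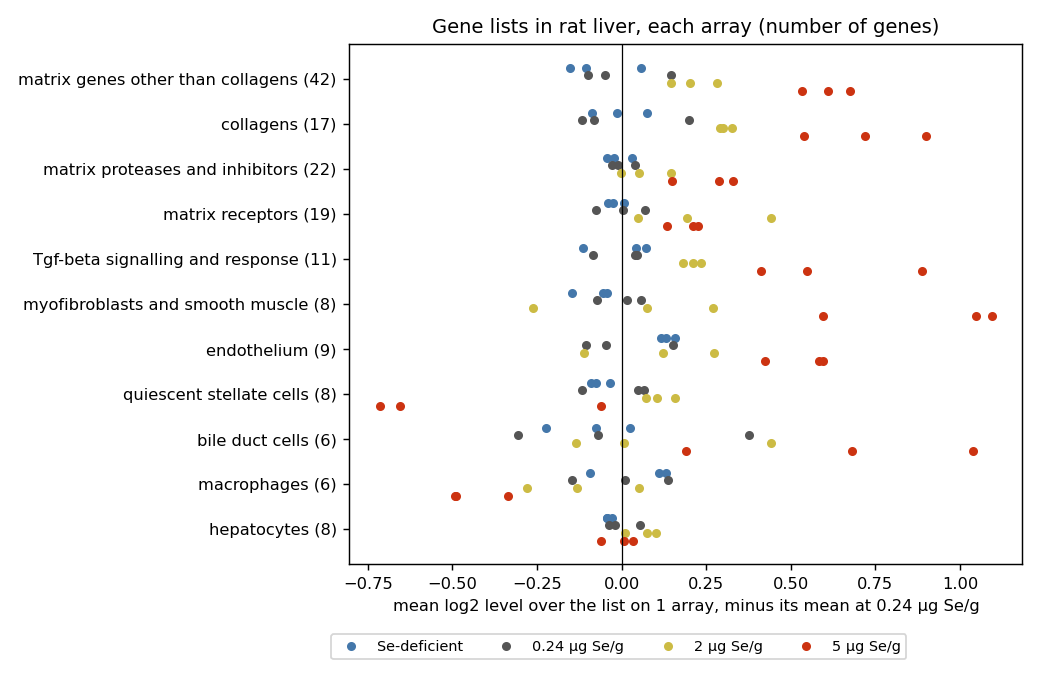
Mean log2 level over each gene list on each array of rat liver, minus its mean over the 3 arrays at 0.24 μg Se/g; each point is 1 array, and the number of genes measured follows each name. The red points (5 μg Se/g) lie right of all others for the matrix genes, collagens, Tgf-beta signalling and response, myofibroblasts and smooth muscle, and endothelium. They do so by a small margin for matrix proteases and inhibitors, and lie near 0 for hepatocytes.

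Below the toxic intake, none of the other rat comparisons called a matrix transcript by limma. On the Se-deficient diet 0 of 42 were called against 0.24 μg Se/g, where 0.00703% of all genes were called lower and 0 higher, the median log2 change was -0.06, and 1, lower, had an unadjusted p below 0.05 (over all genes 1.93% higher and 1.60% lower). That was Fmod, fibromodulin, a collagen-binding proteoglycan, at 4.44, 4.51 and 4.83 against 4.97, 5.00 and 5.01, a change of -0.40 ± 0.12 (adjusted p = 0.999). Lum had the largest change, -1.43 ± 0.81, but its Se-deficient arrays ran from 3.87 to 8.07 and it was not called. Tsku, at 10.58, 10.51 and 10.28 on the Se-deficient diet, changed by 0.51 ± 0.24.

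In the other rat study, 0.8 against 0.08 μg Se/g, 0 of 42 matrix transcripts and 0 of 14217 genes were called by limma, and the median log2 change was -0.01 over the members and over all genes. At an unadjusted p below 0.05 there were Postn, which encodes periostin, with a change of 0.67 ± 0.20, and Sparc, with a change of -0.34 ± 0.14, both at an adjusted p of 0.967, where 1.87% of all genes were higher and 3.33% lower at that unadjusted p. Fbln5, a fibulin that assembles elastic fibres, was next at -0.36 ± 0.17. Lox, at 8.19, 7.40 and 7.77 and then at 7.44, 7.31 and 8.30, overlapped between these diets.

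In mouse liver and kidney the diets reached 0.2 μg Se/g, so no mouse group matches the high rat intakes. In each of the 4 mouse comparisons limma called 0 of 38 matrix transcripts, where 0.0165% of all genes were called higher and 0.0220% lower in Se-deficient liver, 0.0165% lower in Se-deficient kidney, and 0 in the other directions and comparisons. The median log2 change was -0.06 for Se-deficient and 0.04 for Se-marginal liver, and 0.00 for Se-deficient and -0.03 for Se-marginal kidney, each against 0.2 μg Se/g, and all changes lay between -0.23 and 0.41. At an unadjusted p below 0.05 there were 0, 2, 2 and 1 of the 38 in this order. Of all genes 2.06% were higher and 1.84% lower at that p in Se-deficient liver, 0.962% and 0.753% in Se-marginal liver, 2.76% and 2.93% in Se-deficient kidney, and 1.29% and 1.59% in Se-marginal kidney. The smallest p in Se-deficient liver belonged to Mfap4 (-0.22 ± 0.11), P4ha2 (0.15 ± 0.08) and Plod2 (-0.23 ± 0.13), and in Se-marginal liver to Vcan (0.20 ± 0.08), Ccdc80 (0.26 ± 0.12) and Nid2 (0.33 ± 0.15). Within a mouse group the median SD of the members was 0.09 to 0.14, and within a rat group it was 0.15 to 0.20.

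Plod2 was the mouse kidney transcript with the smallest p on both low diets. It was at 9.67, 9.59 and 9.42 in Se-adequate kidney, at 10.11, 9.96 and 9.67 in Se-deficient kidney and at 9.70, 10.07 and 10.16 in Se-marginal kidney. Every array of the low diets lay at or above the highest Se-adequate array. Of all 18193 genes, 800 in Se-deficient and 530 in Se-marginal kidney were higher without overlap. In Se-marginal kidney a second Plod2 probe set changed by 0.20 ± 0.23. The changes of 0.35 ± 0.14 and 0.41 ± 0.14 from the brightest probe set share the Se-adequate arrays and were not called (adjusted p = 0.893 in Se-deficient kidney, and larger in Se-marginal kidney). Next in Se-deficient kidney were Bgn (0.31 ± 0.13) and Fbln2 (-0.16 ± 0.08), and in Se-marginal kidney Efemp1 (-0.15 ± 0.07) and Ltbp1 (-0.17 ± 0.09). The response to Se deficiency was also compared between the tissues, as the liver change minus the kidney change. The methods give 3 mice per diet for both tissues, so liver and kidney appear to share animals, which the fit does not take into account. In it 0 of 38 members were called, with 0.00222% of all probe sets called. With same-numbered liver and kidney arrays as a block, which the labels do not tie to a mouse, 0 were called as well (smallest adjusted p = 0.714). An unadjusted p below 0.05 was seen without the block for 3 members, all with a negative difference, against 3.15% of all genes in that direction and 2.29% in the other, and of these Plod2, at -0.64 ± 0.19, had the smallest (adjusted p = 0.835).

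**Figure D5:**
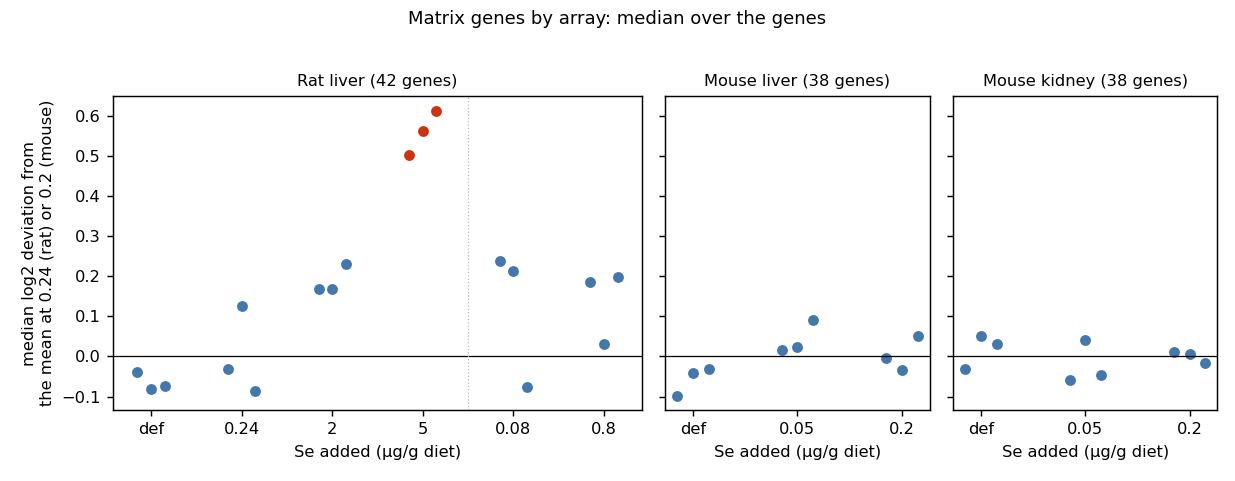
Median over the matrix transcripts of the log2 deviation from the mean of the Se-adequate arrays (0.24 μg Se/g in the rat, 0.2 μg Se/g in the mouse), with 1 point per array; def is the Se-deficient diet and the dotted line parts the 2 rat studies. The arrays at 5 μg Se/g lie at 0.50 to 0.61, above all other arrays, which reach at most 0.24.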

How the data were processed

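Liver and kidney RNA was hybridised to Affymetrix arrays (36 in all, 18 mouse and 18 rat). Each deposited file gives log2 expression by probe set, which the authors computed with GCRMA according to the submitters' processing notes (no version given) and with RMA according to the paper's methods. They were used as deposited, and 0 per-sample columns were left unused. Genes were named through GEO's platform annotation of the arrays, which can be old. Array controls (57 rat and 64 mouse probe sets) were left out. Groups come from the sample titles, and the split of the rat diets into studies follows the paper.

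Each adjusted p is from limma 3.58.1 in R 4.3.3 (lmFit with 1 coefficient per diet, eBayes, two-sided, Benjamini-Hochberg over all 31042 rat or 45037 mouse probe sets, threshold 0.05), fitted for 12 and 6 rat arrays and 9 arrays of each mouse tissue, and for all 18 mouse arrays in the tissue comparison. The fit was tested on simulated data. Figures used Python 3.11.15 with matplotlib 3.10.9. Precision is limited by how many arrays there are, and with 3 arrays per group an exact permutation test cannot go below 0.10.

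The 42 genes, their role groups and all other lists were chosen with earlier results of these data known. Named transcripts are every called member and, in the high-Se rat comparisons, up to 2 more per role group with the smallest p, in the other comparisons the 3 with the smallest p; Tsku, Ccdc80 and Chsy1 are named across diets, and other values that the text gives were chosen after they were seen. Alternatives were other arrays in the fit, eBayes with trend and robust, array weights, a filter on dim probe sets, quantile normalization, the mean of all probe sets of a gene, spike-in controls as a covariate, a replicate block and each array left out. Same-numbered arrays of different diets are different animals, and the labels do not pair them. Only in Se-deficient against Se-adequate mouse liver was each r of their deviations over the chosen limit of 0.1 (r = 0.462, 0.105 and 0.319). For Se-deficient against Se-adequate diets, r was 0.107, 0.090 and 0.276 in mouse kidney, and 0.104, 0.055 and 0.304 in rat liver.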

Additional observations from a re-analysis of the deposited data

How the results depend on the processing

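Of the 12 transcripts called at 5 against 0.24 μg Se/g in rat liver, 9 kept the call in every alternative run, and Serpinh1, Nid2 and Chsy1 lost it in 4, 9 and 8 of 16. Lama5 and Tnc, among those 9, were tested in 15 alternatives, as the filter on dim probe sets removed both. The count of 12 became 9 to 14 with an array left out and 20 with array weights, and its median of 0.55 became 0.43 to 0.66 with an array left out (0.62 and 0.43 without Se-adequate replicates 2 and 3, 0.66 and 0.49 without replicate 1 or 3 at 5 μg Se/g). Leaving replicate 1 at 2 μg Se/g out of that fit, chosen after seeing the data, gave 14. The count of 0 at 2 against 0.24 μg Se/g became 1 with all rat arrays in one fit, 21 (17 higher, 4 lower) with array weights, and 0 to 4 with an array left out, 4 without replicate 3 at 2 μg Se/g, and its median of 0.17 became 0.086 with the mean of all probe sets of a gene.

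The count of 9 at 5 against 2 μg Se/g was the least stable. It became 0 with only the arrays of both diets, 14 with all rat arrays, 25 (21 higher, 4 lower) with array weights, 2 with the spike-in controls as a covariate, and 4 to 19 with an array left out. Its median of 0.33 became 0.43 without dim probe sets, 0.25 with the mean of all probe sets and 0.22 with the spike-in controls as a covariate. Loxl2 turned negative there in 3 alternatives, at -0.17 with the spike-in covariate, -0.017 without replicate 3 at 2 μg Se/g and -0.00351 without replicate 2 at 5 μg Se/g (at most 0.072 with an array left out, 0.03 in the main comparison). With the spike-in covariate the median at 0.8 against 0.08 μg Se/g was -0.22, and with the mean of all probe sets Ltbp1 in Se-marginal kidney was 0.010 (-0.17 from its brightest probe set). All other alternatives of all counts and medians stayed within 1.5 times the count or within the spread between replicates. The array weights are no usable alternative for the 12-array rat fit: their estimation stopped before convergence and gave replicate 2 at 2 μg Se/g a weight of 154, where the other arrays had 0.163 to 1.72. For the other changes the cause was not tested.

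With a replicate block the counts were 11 at 5 against 0.24 μg Se/g, 8 at 5 against 2 μg Se/g and 0 in every other comparison. The latter include Se-deficient against Se-adequate mouse liver, so the block changed no count by over 1.5 times. For 0.8 against 0.08 μg Se/g the fit already holds only those 6 arrays. The 3 arrays per diet and the dim signal of some probe sets (Postn, Fbln1, Efemp1 and Fmod reached at most 4.82, 4.97, 5.19 and 5.24 in any rat array) limit what could be called.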

Other observations

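Levels of the matrix transcripts in Se-adequate mouse liver and kidney are given side by side, for genes read from the same probe set in both tissues; the tissues were normalized separately, so no test was made. Fn1 was at a mean of 12.59 in liver and 8.29 in kidney, Dcn at 9.95 and 8.06, and Lum at 6.89 and 4.83. Fbln5 was at 6.62 in liver and 9.22 in kidney, P4ha2 at 6.36 and 7.86, Efemp1 at 6.12 and 7.53, and Serpinh1 at 7.58 and 8.75. Hspg2 was at 9.75 and 9.63, Lama5 at 9.22 and 9.04, Sparc at 9.46 and 9.55 and Lama4 at 6.22 and 6.27.

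In rat liver the mean of Lox was 7.79 at 0.08 μg Se/g and 7.68 on the diet with 0.8 μg Se/g, between the Se-adequate 6.99 and the 9.26 at 5 μg Se/g of the other study. Loxl2 was at 5.83 and 5.82 on these diets, with SDs of 0.05 and 0.08, against an SD of 0.56 at 0.24 μg Se/g. These studies were not fitted together in the main comparisons.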
